A study of Mus musculus with 15 samples.

Results

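The genes described here are the 66 members of 11 gene families that carry out the fusion of synaptic vesicles with the nerve terminal membrane. They were taken by symbol alone from the 26628 genes of a brain RNA-seq table: the numbered synaptotagmins (17 genes), syntaxins (15) and VAMPs (6), 4 genes of the SNAP-25 family, 4 complexins, 4 Rab3, 3 Munc13, 3 Doc2, 3 synapsin, 3 SV2 and 4 RIM genes. No expression value entered this rule, although the families themselves were picked with earlier results of these data known. RNA of the whole cerebellum (Ce) and of the striatum (St) was sequenced from male Hsd:ICR mice, an outbred stock, of an unselected control line (Co) and of a line bred to run far on wheels (Hi). The groups were 4 CeCo, 4 CeHi, 4 StCo and 3 StHi samples, since the authors took 1 StHi sample out. The age is 6 weeks in the labels and 7 weeks in the study's methods. Mice of both lines, controls included, had a running wheel and were dissected in their active dark phase. The wheel time is 7 days in the labels, and 6 days with dissection on day 7 in the study's methods. Each line is 1 breeding line, so the effects of selection and of chance divergence between the lines cannot be told apart, and the samples of a group are treated as separate mice on the strength of the labels' replicate numbers 0 to 3. Whether the Ce and St samples of 1 number came from the same mouse is not given in the sources used here, and the model treats all samples as independent, which bears on P-values over both regions and for the interaction.

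A neurotransmitter-filled vesicle is tethered at the active zone by Rab3 and RIM proteins and primed by Munc13, which opens syntaxin so that it can pair with SNAP-25 on the plasma membrane and with a VAMP (synaptobrevin) on the vesicle. The assembled SNARE complex is held by complexin until calcium, which enters with the action potential, binds a synaptotagmin and fusion follows. Synaptotagmins 1, 2 and 9 are the fast calcium sensors of neurons, and different neuron types are known to use different ones of them. In the cerebellum most transcripts come from the very numerous glutamatergic granule cells, whereas the striatum is made mainly of GABAergic medium spiny neurons, whose terminals lie in other nuclei and whose vesicle mRNA is nevertheless made in their cell bodies.

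Values are fragment counts per gene that the authors normalized for library size and did not divide by gene length. The samples held 32909378 to 47485505 fragments, and 1 fragment was worth 0.841 to 1.30 normalized counts. Region differences are St minus Ce and line differences are Hi minus Co, both as log2 of the normalized count plus 1 with the standard error (SE) of the model. A difference is called at an FDR-adjusted P-value (Benjamini-Hochberg over 15213 genes, limma) under 0.05. In bulk tissue, fewer cells of a type and less RNA per cell cannot be told apart. The dissections carried their defining markers. Gabra6 of granule cells lay at 48245 to 61069 normalized counts in Ce and at 11 to 24 in St, and Drd2 of medium spiny neurons at 3531 to 5275 in St and at 19 to 109 in Ce. Of the 7 listed markers of cortical pyramidal neurons, 4 (Neurod6, Tbr1, Fezf2 and Emx1) were picked, after their values were seen, for being low in Ce. They summed to 5177 to 8009 normalized counts in StCo and 2739 to 6147 in StHi, against 160 to 223 in Ce. All 7 together, with Nrn1 (higher in Ce, -1.15) and Slc17a7 (0.02) among them, summed to 36509 to 54496 in StCo, 20046 to 42936 in StHi, 32580 to 39963 in CeCo and 32366 to 38153 in CeHi. CeHi replicate 3 and StHi replicate 1 stood apart in ways that touch the results below. CeHi replicate 3 had the Ce maximum of Drd2. The 10 measured medium spiny neuron markers summed to 14924 in that sample, the lowest sum in CeHi (up to 16604). In CeCo these medium spiny neuron markers summed to 14471 to 15094. The 4 listed markers of midbrain dopamine neurons summed to 663 in CeHi replicate 3, the highest of the 8 Ce samples. They summed to 395 to 458 in CeCo, 528 to 785 in StCo and 606 to 664 in StHi. The sum of the 4 cortex markers in CeHi replicate 3 (201) was the lowest in CeHi. The part of other tissue in that sample was not tested. CeHi replicate 3 was the highest of 8 Ce samples in 7 of the 11 members that were higher in St by a log2 difference over 1, against 40.3% of all such genes. StHi replicate 1 had the lowest cortex marker sum and was the lowest of 7 St samples in 7 of the same 11 members, against 18.4% of all such genes.

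Upstream sequences of 4 genes are shown because the results turn on them. Syt2 and Syt9 were the calcium sensors highest in Ce relative to St, Stx1a had the largest difference in the other direction, and the line difference of Rab3b differed between the regions. The sequences are from RefSeq on GRCm38.p6 and stop before the annotated transcript start, all on the plus strand: 250 bases for Syt2 (chr1:134646362-134646611), 188 for Syt9 (chr7:107370540-107370727), 250 for Stx1a (chr5:135023232-135023481) and 243 for Rab3b (chr4:108878820-108879062). Capitals mark the GC box GGGCGG and the TATA box TATAAA, searched on both strands.
Syt2: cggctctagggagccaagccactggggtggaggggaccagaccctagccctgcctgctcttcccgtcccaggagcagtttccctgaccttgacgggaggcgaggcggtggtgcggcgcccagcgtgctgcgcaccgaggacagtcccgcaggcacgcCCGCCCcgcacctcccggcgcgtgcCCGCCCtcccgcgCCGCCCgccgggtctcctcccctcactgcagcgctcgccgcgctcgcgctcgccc
Syt9: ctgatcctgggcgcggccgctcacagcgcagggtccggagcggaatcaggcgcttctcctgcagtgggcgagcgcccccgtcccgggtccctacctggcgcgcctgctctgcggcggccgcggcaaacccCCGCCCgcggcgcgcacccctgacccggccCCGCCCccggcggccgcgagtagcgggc
Stx1a: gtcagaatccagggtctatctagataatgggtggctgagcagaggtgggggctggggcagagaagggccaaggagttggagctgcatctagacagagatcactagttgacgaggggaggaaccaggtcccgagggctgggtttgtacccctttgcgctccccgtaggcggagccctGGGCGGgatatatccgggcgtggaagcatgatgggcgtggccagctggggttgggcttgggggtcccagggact
Rab3b: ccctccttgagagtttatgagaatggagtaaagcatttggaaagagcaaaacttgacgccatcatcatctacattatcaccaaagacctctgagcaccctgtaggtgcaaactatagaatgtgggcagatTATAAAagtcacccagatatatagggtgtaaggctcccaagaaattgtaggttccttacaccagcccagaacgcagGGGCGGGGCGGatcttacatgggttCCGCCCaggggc

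The sequences of Syt2 and Syt9 are rich in G and C (76.0% and 79.8%) and hold 30 and 29 CpG dinucleotides, whereas Stx1a (62.0%, 9 CpG) and Rab3b (48.1%, 5 CpG) hold fewer. GC boxes were matched 3 times in Syt2, 2 times in Syt9, 1 time in Stx1a and 3 times in Rab3b, where 2 of the matches overlap, and the TATA box was matched in Rab3b alone. The RefSeq table held 66 upstream windows of up to 250 bases for 50 of the 66 genes. Syt2 had 2 windows, of which 1 is shown. A GC box lay in 39 of these windows (59.1%) against 32.7% of all 32851 windows, and a TATA box in 5 (7.58%) against 12.4%. The cyclic AMP response element TGACGTCA was matched in the window of Syn1 alone (1.52% against 1.55%) and the E-box CACGTG in 8 windows (12.1% against 6.02%). The median G and C content was 59.2% in the windows of these genes and 52.4% in all windows. These matches describe letters and not bound sites, and no match speaks only of these windows.

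All 66 genes were placed on GRCm38. They lie on many chromosomes, and Vamp5 and Vamp8 are neighbours on chromosome 6, 4754 bases apart. Of the 66 genes, 61 had a CPM of at least 1 (normalized counts scaled to a total of 1000000) in 3 or more samples and were tested. The 5 others were Syt8 (at most 1 fragment in any sample), Stx19 (at most 4), Cplx4, a complexin known from the retina (at most 5), Stx11, a syntaxin of immune cells (at most 11), and Syt15 (at most 61, between 3.89 and 55.8 normalized counts).

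Between the regions 52 of the 61 genes differed, 28 higher in St and 24 higher in Ce. This is 85.2% of the genes against a background of 80.2% of all genes tested (39.6% higher in St and 40.6% higher in Ce), so the count itself is near the background. The median size of the log2 difference was 0.54 for these genes and 0.44 for all genes. A log2 difference over 2 was found in 11 of 61 (18.0%) against 10.7% of all genes. All 4 RIM genes were higher in Ce and all 3 synapsins were higher in St. Of the 3 complexins and the 3 SV2 genes tested, 2 each were higher in St and 1 was not called, while the other families had calls in both directions. The 9 genes that were not called were Cplx1, Sv2a, Syt3, Syt13, Snap29, Stx7, Stx12, Stx17 and Stx18, and apart from Syt13 (interval -0.31 to 0.06) their 95% intervals lay between -0.11 and 0.21. The small differences of Doc2b, Rab3a, Sv2b, Syt14, Unc13a and Vamp4 were not called with quantile normalization (0.06 to 0.19, in the same direction), and those of Sv2a, Syt13 and Stx12 then were, toward Ce (-0.24 to -0.13). Sv2b was also lost without any 1 of 8 samples (adjusted P up to 0.091 without StHi replicate 0), and Doc2b without StHi replicate 1 (0.14, adjusted P = 0.053). Without StHi replicate 0, Syt13 was called as higher in Ce (-0.23).

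**Figure D1:**
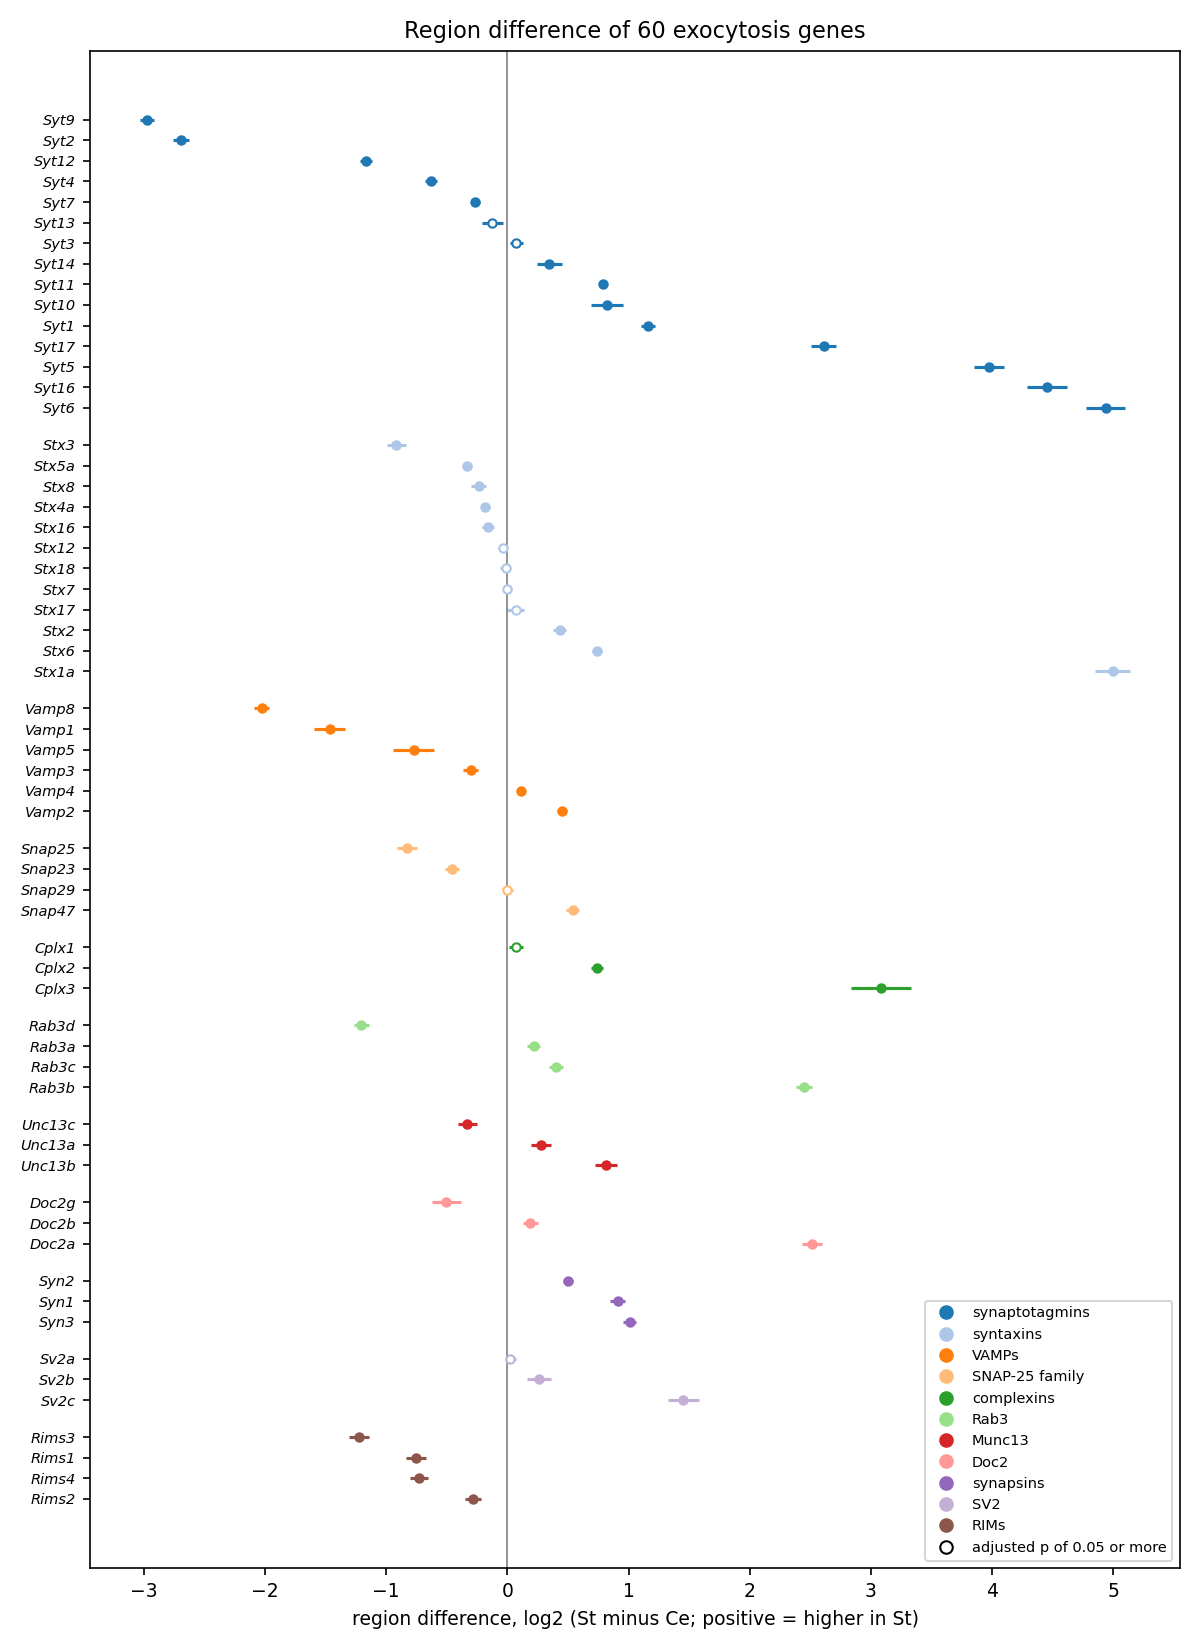
Log2 difference between St and Ce (x axis, positive is higher in St) of 60 tested genes, grouped and coloured by family, with bars for the SE of the model and open circles for genes with an adjusted P-value of 0.05 or more. Stx1a, Syt6, Syt16 and Syt5 stand at log2 differences of 3.97 to 4.99, and Syt9 and Syt2 at -2.97 and -2.70.

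The fast calcium sensors were used in different proportions in the regions. Syt1, the sensor of most forebrain synapses, had 23308 to 31629 normalized counts in the 8 Ce samples (median 28040) and 51507 to 72386 in the 7 St samples (median 61340), a log2 difference of 1.16 ± 0.059 (2.23-fold, limma adjusted P = 6.6e-12). Every St sample was above every Ce sample. Syt2, the sensor of fast hindbrain and interneuron terminals, was the reverse, with 7760 to 11760 in Ce (median 9620) and 1272 to 1603 in St (median 1545), a log2 difference of -2.70 ± 0.066 (6.48-fold higher in Ce). Its groups were far apart, the lowest Ce sample being above the highest St sample. Syt9, the related sensor, lay at 3504 to 4225 in Ce and 357 to 611 in St and had the largest difference of any member toward Ce, -2.97 ± 0.060 (7.86-fold, adjusted P = 3.2e-17). Their upstream sequences are those shown above. Counted per kilobase of exon, Syt1 made up 60.1% ± 2.90 (SD, n = 8) of the sum of the 3 sensors in Ce, Syt2 22.9% ± 2.63 and Syt9 17.1% ± 0.787. In St, Syt1 made up 96.0% ± 0.738 (SD, n = 7), Syt2 2.49% ± 0.416 and Syt9 1.54% ± 0.351. The ranges of these shares did not overlap between the regions for any of the 3 sensors.

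The synaptotagmins with the largest differences toward St were Syt6, Syt16, Syt5 and Syt17. Syt6 had 149 to 296 normalized counts in Ce and 5075 to 7180 in St (4.94 ± 0.160, 30.6-fold). Syt16, a synaptotagmin that does not bind calcium, had 86.5 to 244 in Ce and 2224 to 3160 in St (4.45 ± 0.166), and Syt5, a calcium-binding form of dense-core and synaptic vesicles, 260 to 669 and 5450 to 7065 (3.97 ± 0.126). Syt17 rose from 105 to 148 in Ce to 562 to 1101 in St (2.61 ± 0.104). CeHi replicate 3 was the highest Ce sample for all 4 of them. Without CeHi replicate 3 and StHi replicate 1 the differences stayed past the threshold.

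Syt12, which does not bind calcium, was higher in Ce (3550 to 4698 against 1671 to 2021 normalized counts, -1.17 ± 0.049, 2.25-fold). Of the forms that act more slowly or on other vesicles, Syt7, a high-affinity sensor, was slightly higher in Ce (-0.26 ± 0.036), and Syt4, an inducible form of dense-core vesicles, was 1.55-fold higher there (-0.63 ± 0.047). Syt11, which lacks calcium binding and acts in membrane retrieval, was 1.73-fold higher in St (0.79 ± 0.033), as were Syt10 (0.82 ± 0.132) and Syt14 (0.34 ± 0.102). Per kilobase of exon, Syt11 (mean 4374 normalized counts per kb), Syt4 (4072) and Syt1 (3361) led the synaptotagmins in Ce, and Syt1 (7566) and Syt11 (7540) in St. Their order by mean share was not the same in the lines, but the shares were not tested. None of Syt1, Syt4 and Syt11 was called between the lines in either region alone. As shares of the family's sum per kb, Syt4 and Syt11 made up 21.9% ± 0.98 and 21.8% ± 0.839 (SD, n = 4) in CeCo and 19.1% ± 0.641 and 22.4% ± 1.03 in CeHi. In StCo Syt1 was above Syt11 (28.7% ± 1.19 and 27.0% ± 0.869) and in StHi below it (26.9% ± 1.36 and 29.3% ± 1.12, n = 3). Levels per kilobase use the merged exons of all isoforms and are too low for genes with long rarely used exons, such as Unc13b.

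**Figure D2:**
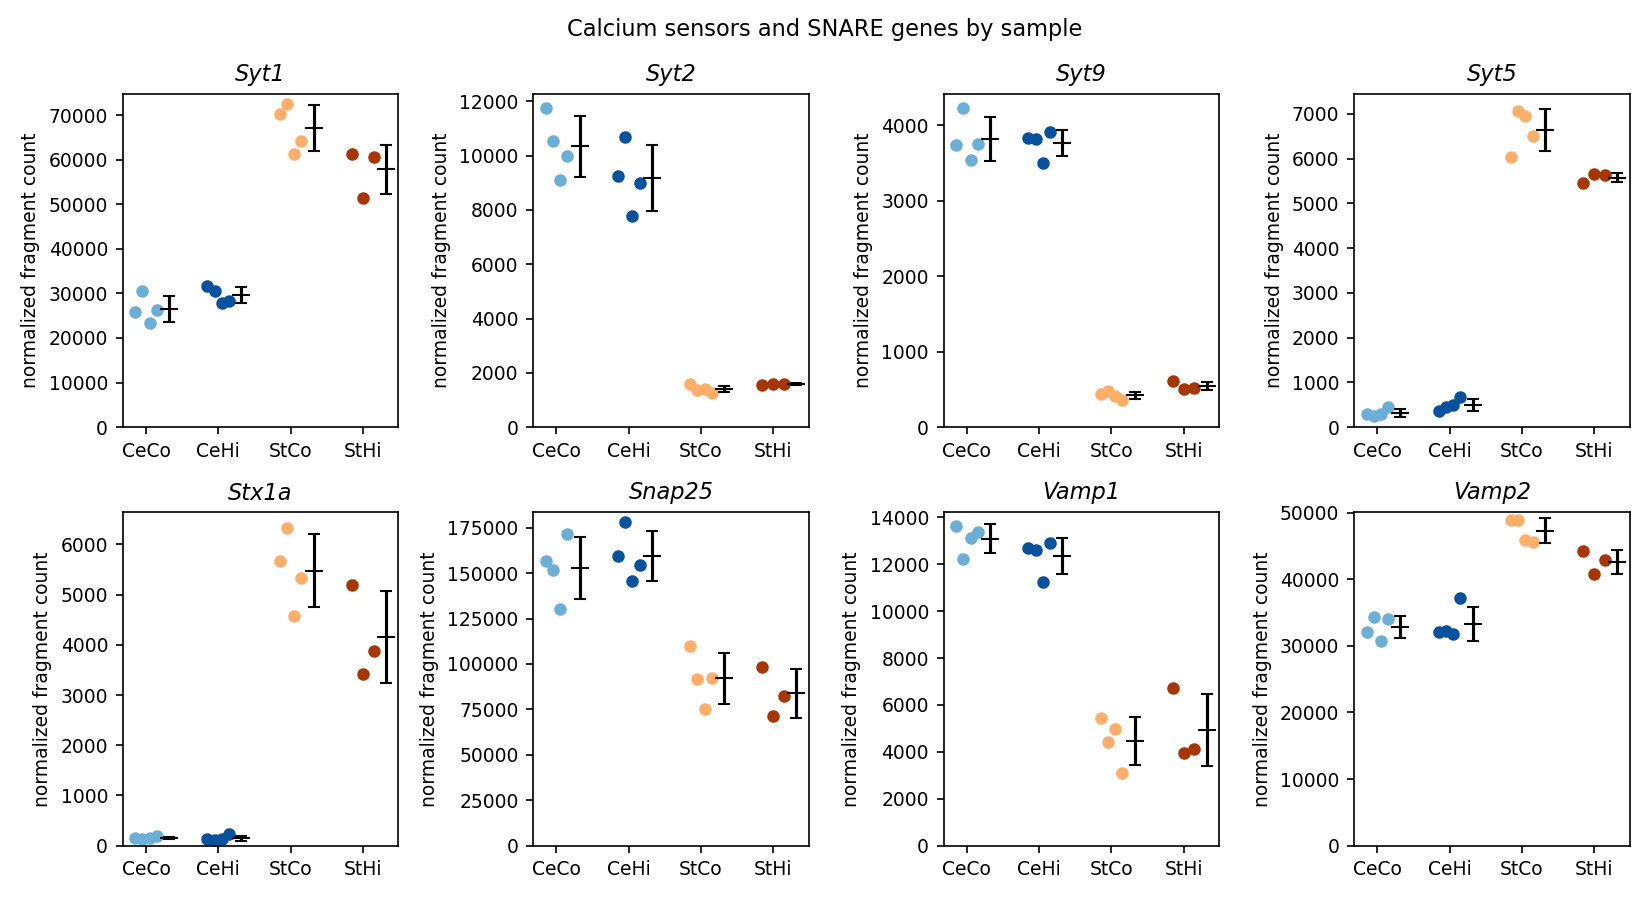
Normalized fragment counts (y axis, linear from 0) of 4 synaptotagmins, Stx1a, Snap25 and 2 VAMPs in each of the 15 samples, with points for samples and the black bar for the group mean ± SD beside them. Syt2, Syt9, Snap25 and Vamp1 are lower in every St sample than in any Ce sample, and Syt1, Syt5, Stx1a and Vamp2 are higher.

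Of the plasma membrane SNAREs, Stx1a had the largest region difference of the 61 genes. It lay at 109 to 224 normalized counts in Ce (median 140) and at 3418 to 6334 in St (median 5187), a log2 difference of 4.99 ± 0.146 (31.9-fold, adjusted P = 1.1e-13). Every St sample was far above every Ce sample, and per kilobase Stx1a (mean 1843 normalized counts per kb) and Stx12 (1703) were close together there. Stx1a made up 21.8% ± 1.87 of the syntaxins' sum per kb in StCo and 18.1% ± 3.30 in StHi, against 18.8% ± 0.25 and 18.9% ± 0.685 for Stx12. Snap25, the neuronal partner of syntaxin and the member with the most counts, was 1.77-fold higher in Ce, where it had 130213 to 178263 against 71171 to 109695 in St (-0.83 ± 0.085). Snap47 was higher in St (0.54 ± 0.053), and it rose from 10.4% ± 1.03 of the summed level per kb of the SNAP-25 family in Ce to 22.6% ± 2.45 in St, while Snap25 went from 87.3% ± 1.23 to 74.1% ± 2.64. The broadly expressed Snap23 was 1.37-fold higher in Ce (-0.46 ± 0.059).

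Stx3, the syntaxin of ribbon synapses and of dendritic exocytosis, was higher in Ce (1565 to 2263 against 806 to 1102 normalized counts, -0.92 ± 0.080). Stx6, a syntaxin of the trans-Golgi and endosomes, was 1.67-fold higher in St (0.74 ± 0.041), and Stx2 1.35-fold (0.43 ± 0.057). Stx5a (-0.34 ± 0.041), Stx8 (-0.24 ± 0.062) and Stx16 (-0.16 ± 0.051), syntaxins of the Golgi and endosomes, were slightly higher in Ce, as was Stx4a of the plasma membrane (-0.18 ± 0.037), and Stx7, Stx12, Stx17 and Stx18 were not called.

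Vamp2, the main vesicle SNARE of the forebrain, led its family per kilobase in both regions (8679 normalized counts per kb in Ce and 11890 in St). It had 30775 to 37120 normalized counts in Ce and 40715 to 48964 in St (0.45 ± 0.043, 1.36-fold). Vamp1, its homologue in brainstem, spinal cord and hindbrain neurons, had 11237 to 13621 in Ce and 3080 to 6726 in St (-1.47 ± 0.127, 2.76-fold higher in Ce). Vamp1 made up 12.6% ± 0.874 of the sum of both per kb in Ce (n = 8) and 3.72% ± 0.890 in St (n = 7). These shares depend on the merged exon lengths of all isoforms, 10167 bases for Vamp1 and 3809 for Vamp2. Vamp8, an endosomal VAMP used for secretion in many cell types outside neurons, was 4.08-fold higher in Ce (667 to 913 against 170 to 215, -2.03 ± 0.064), and its neighbour Vamp5 was 1.71-fold higher there at far lower counts (53.5 to 95.6 against 27.3 to 51.2). Vamp3 was slightly higher in Ce (-0.30 ± 0.062) and Vamp4 in St (0.11 ± 0.037).

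The complexins clamp and then promote fusion. Cplx1 was the highest complexin in Ce (12766 normalized counts per kb) and Cplx2 in St (15936). Cplx1 had 25978 to 30540 normalized counts in Ce and 26045 to 33405 in St and was not called (0.07 ± 0.057), whereas Cplx2 went from 43077 to 52168 in Ce to 71582 to 85245 in St (0.74 ± 0.052). Cplx3, a form of retinal and of some cortical neurons, lay at 25.3 to 130 in Ce and 303 to 949 in St (3.08 ± 0.249, 8.46-fold). Its SE was the largest of the 61 genes.

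**Figure D3:**
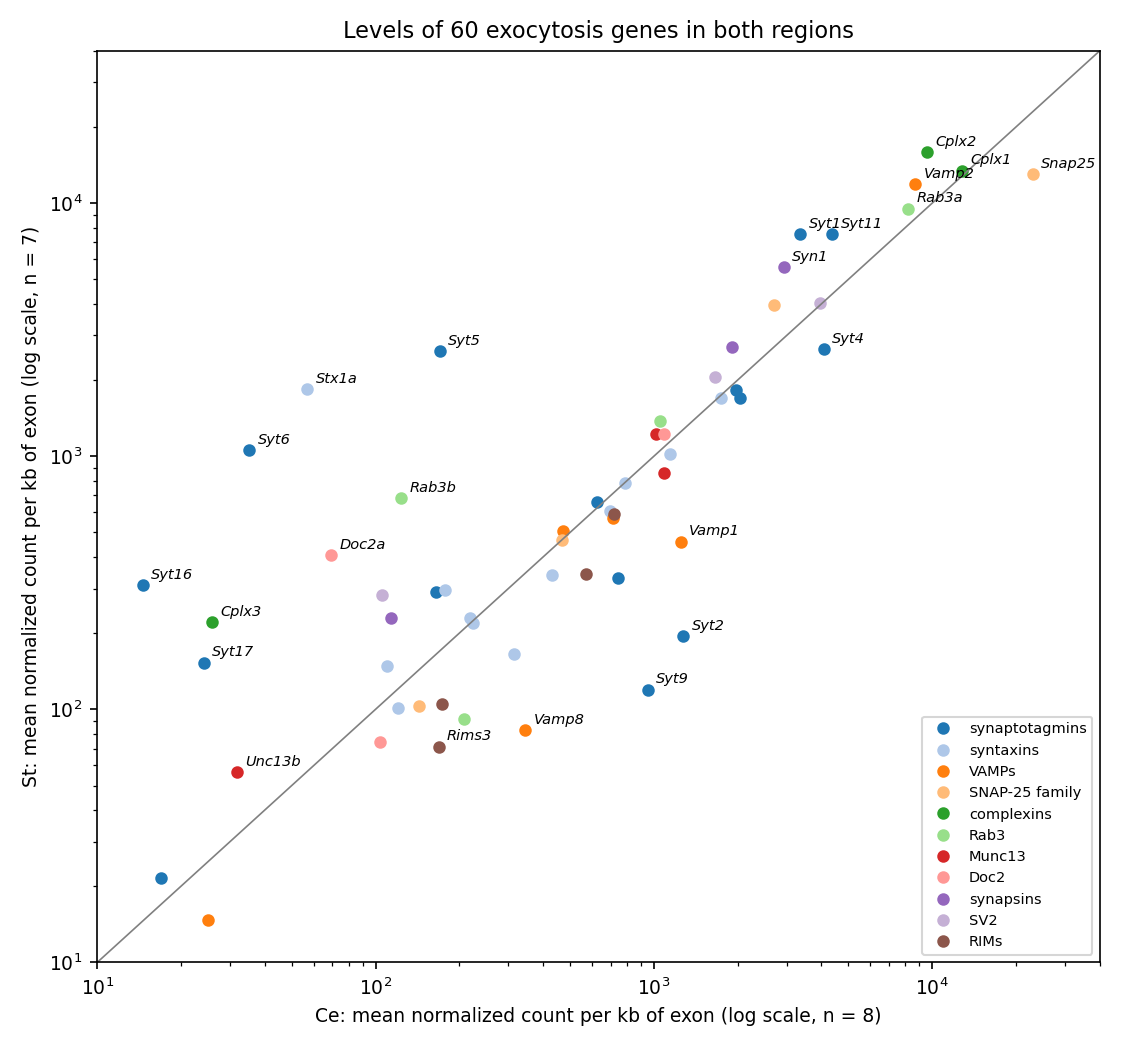
Mean normalized count per kilobase of exon of 60 tested genes in Ce (x axis, n = 8) and St (y axis, n = 7), both on log scales, coloured by family, with equal levels on the grey line. Of the most abundant members, Cplx1, Vamp2 and Rab3a lie near the line and Snap25 (-0.83) and Cplx2 (0.74) farther from it, and the largest departures are among the genes of middle and low level.

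At the docking and priming step the regions differed in the minor forms more than in the main ones. Rab3a, the main Rab3 of synaptic vesicles, led its family in both regions (8184 normalized counts per kb in Ce and 9508 in St) and was 1.16-fold higher in St (0.22 ± 0.051). Rab3b was 5.45-fold higher in St (2043 to 2773 against 364 to 578 normalized counts, 2.45 ± 0.065), and Rab3d, a form of secretory cells, 2.31-fold higher in Ce (815 to 915 against 299 to 472, -1.21 ± 0.063). All 4 RIM genes, active zone scaffolds that bind Rab3 and calcium channels, were higher in Ce. Rims3, a short gamma form, had 1024 to 1594 normalized counts in Ce and 414 to 672 in St (-1.22 ± 0.082, 2.34-fold), Rims1 and Rims4 were 1.69-fold and 1.66-fold higher in Ce, and Rims2, the highest RIM per kilobase in both regions, 1.22-fold (-0.28 ± 0.064).

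Among the Munc13 genes, Unc13a, the general priming factor, was 1.21-fold higher in St (0.28 ± 0.082) and led there per kilobase (1226 normalized counts per kb). Unc13c, known as a form of cerebellar granule cells, and Unc13a were within each other's spread per kilobase in Ce (1091 ± 125 and 1018 ± 137 per kb, SD, n = 8), and Unc13c was 1.26-fold higher there than in St, with 7786 to 11338 normalized counts in Ce and 5842 to 9332 in St (-0.33 ± 0.077). Its ranges overlapped. Unc13b was 1.76-fold higher in St (0.81 ± 0.091). Doc2a, a high-affinity calcium sensor of spontaneous and asynchronous release, was 5.70-fold higher in St (780 to 1439 against 160 to 264 normalized counts, 2.51 ± 0.084), and Doc2b, which led the family in both regions, 1.14-fold (0.19 ± 0.065). Doc2g was 1.42-fold higher in Ce. Ino80e, on the opposite strand, overlaps 39.4% of the exon bases of Doc2a (chr7:126847416-126852705), and a transcript on the same strand overlaps 63.5% of those of Doc2g, so part of their counts could belong to the neighbour. Ino80e itself lay at 701 to 924 normalized counts over all samples, and its part in the counts of Doc2a was not tested.

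The synapsins, which hold the reserve pool of vesicles, were higher in St throughout. Syn1, the highest per kilobase in both regions, had 8768 to 10796 normalized counts in Ce and 14067 to 21082 in St (0.91 ± 0.062, 1.88-fold), Syn2 was 1.42-fold higher (0.50 ± 0.041) and Syn3 2.01-fold (1293 to 1681 against 2427 to 3055, 1.01 ± 0.053). Timp3 lies within Syn3 on the opposite strand and overlaps 14.1% of its exon bases. Of the SV2 glycoproteins of the vesicle membrane, Sv2a was the highest per kilobase in both regions and was not called (0.02 ± 0.048, 95% interval -0.08 to 0.13). Sv2c, known from the basal ganglia, was 2.74-fold higher in St (630 to 1354 against 2047 to 3597 normalized counts, 1.45 ± 0.131), and Sv2b 1.20-fold (0.26 ± 0.102).

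The line comparison asks whether breeding for wheel running went with a change in release machinery. In Ce 1 of the 61 genes was called between CeHi and CeCo, against 5.94% of all genes, in St 1 between StHi and StCo, against 2.66%, and over both regions 1, against 8.48%. The line difference differed between the regions in 1 gene, against 0.532% of all genes. At an unadjusted P-value under 0.05 the counts were 12 of 61 in Ce (against 19.7% of all genes) and 16 of 61 in St (against 14.1% of all genes). They were 14 of 61 over both regions (against 22.3% of all genes) and 13 of 61 for the interaction (against 9.56% of all genes). The 95% interval of the line difference lay within 0.5 of zero on the log2 scale for 50 of the 61 genes in Ce and for 46 in St, and within 1 for 60 in each. The gene with the wider interval was Cplx3, with differences of -0.76 ± 0.339 in Ce and -0.69 ± 0.366 in St. In St 21 of the 61 differences were positive, with a median of -0.06, against 48.3% positive and a median of -0.005 over all genes, and in Ce 28 were positive.

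Syt4 was called over both regions. It had 17371, 18050, 16583 and 15465 normalized counts in CeCo and 15549, 15617, 13862 and 14300 in CeHi, and 11642, 11078, 9991 and 11429 in StCo against 9431, 8738 and 10006 in StHi. In both regions the Hi samples lay low, with an overlap of 1 CeCo sample with 2 CeHi samples in Ce and of 1 StCo with 1 StHi sample in St. The mean line difference was -0.21 ± 0.047 (limma adjusted P = 0.0085), with -0.19 ± 0.064 in Ce (adjusted P = 0.097) and -0.24 ± 0.070 in St (adjusted P = 0.084), neither called alone. It stayed past the threshold when any 1 sample was left out. Without CeHi replicate 3 and StHi replicate 1 together it was -0.18 with an adjusted P of 0.0505. A transcript on the opposite strand (Gm26658) overlaps 14.5% of the exon bases of Syt4.

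Syt9 was called in St. Its values were 446, 473, 414 and 357 normalized counts in StCo and 611, 511 and 522 in StHi, all StHi samples being above all StCo samples, a line difference of 0.37 ± 0.088 (1.30-fold higher in Hi, limma adjusted P = 0.029). In Ce, where the gene was far higher, its groups overlapped (3541 to 4225 against 3504 to 3903) and the difference was -0.02 ± 0.082, and the difference between the regions was not called (-0.39 ± 0.121, adjusted P = 0.21). The call in St was lost without StCo replicate 2 (0.37, adjusted P = 0.053), StCo replicate 3 (0.30, 0.068), StHi replicate 0 (0.29, 0.13) or StHi replicate 2 (0.41, 0.059). With St fitted alone it was 0.37 with an adjusted P of 0.15.

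Syt5 was called in Ce at the edge of the threshold. It had 293, 260, 283 and 440 normalized counts in CeCo and 362, 445, 495 and 669 in CeHi, with CeCo replicate 3 inside the range of CeHi, a line difference of 0.62 ± 0.171 (limma adjusted P = 0.0495). These are low values beside the 5450 to 7065 of St. The highest was CeHi replicate 3, the sample with the highest Drd2 in Ce but the lowest sum of the 10 medium spiny neuron markers in CeHi. That sample also had the highest sum of midbrain dopamine neuron markers in Ce. Whether other tissue in it bears on Syt5 was not tested. Without that sample the difference was 0.46 with an adjusted P of 0.10. Leaving out any of CeCo replicates 0 to 2, CeHi replicates 1 to 3 or any St sample gave adjusted P-values of 0.059 to 0.14, and leaving out CeCo replicate 3 or CeHi replicate 0 gave 0.0055 and 0.015. The call was also lost with sample quality weights (0.48, adjusted P = 0.093), with Ce fitted alone (0.12), by edgeR (0.055) and with a pseudocount of 0.1 (0.0501). In St the values of Syt5 were lower in Hi (5450, 5646 and 5637 against 6042 to 7065), without overlap, and the difference was not called (-0.26 ± 0.185).

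Rab3b was the gene whose line difference differed between the regions. It had 387, 404, 364 and 398 normalized counts in CeCo and 491, 449, 412 and 578 in CeHi, all above CeCo, and 2773, 2773, 2762 and 2270 in StCo against 2057, 2043 and 2154 in StHi, all below StCo. The line differences were 0.30 ± 0.089 in Ce (limma adjusted P = 0.058) and -0.34 ± 0.096 in St (adjusted P = 0.068), and their difference was 0.64 ± 0.131 (95% interval 0.37 to 0.92, adjusted P = 0.036). The size ranged from 0.53 to 0.71 over all alternatives. Without CeHi replicate 3 it was 0.55 (adjusted P = 0.040). The call was lost when any CeCo sample, CeHi replicate 0, StCo replicates 0 to 2 or any StHi sample was left out (adjusted P of 0.051 to 0.10), without CeHi replicate 3 and StHi replicate 1 together (0.53, 0.11), with quantile normalization (0.0501) and with the replicate number as a block (0.63, 0.084). A transcript on the opposite strand (8030443G20Rik) overlaps 9.0% of the exon bases of Rab3b.

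**Figure D4:**
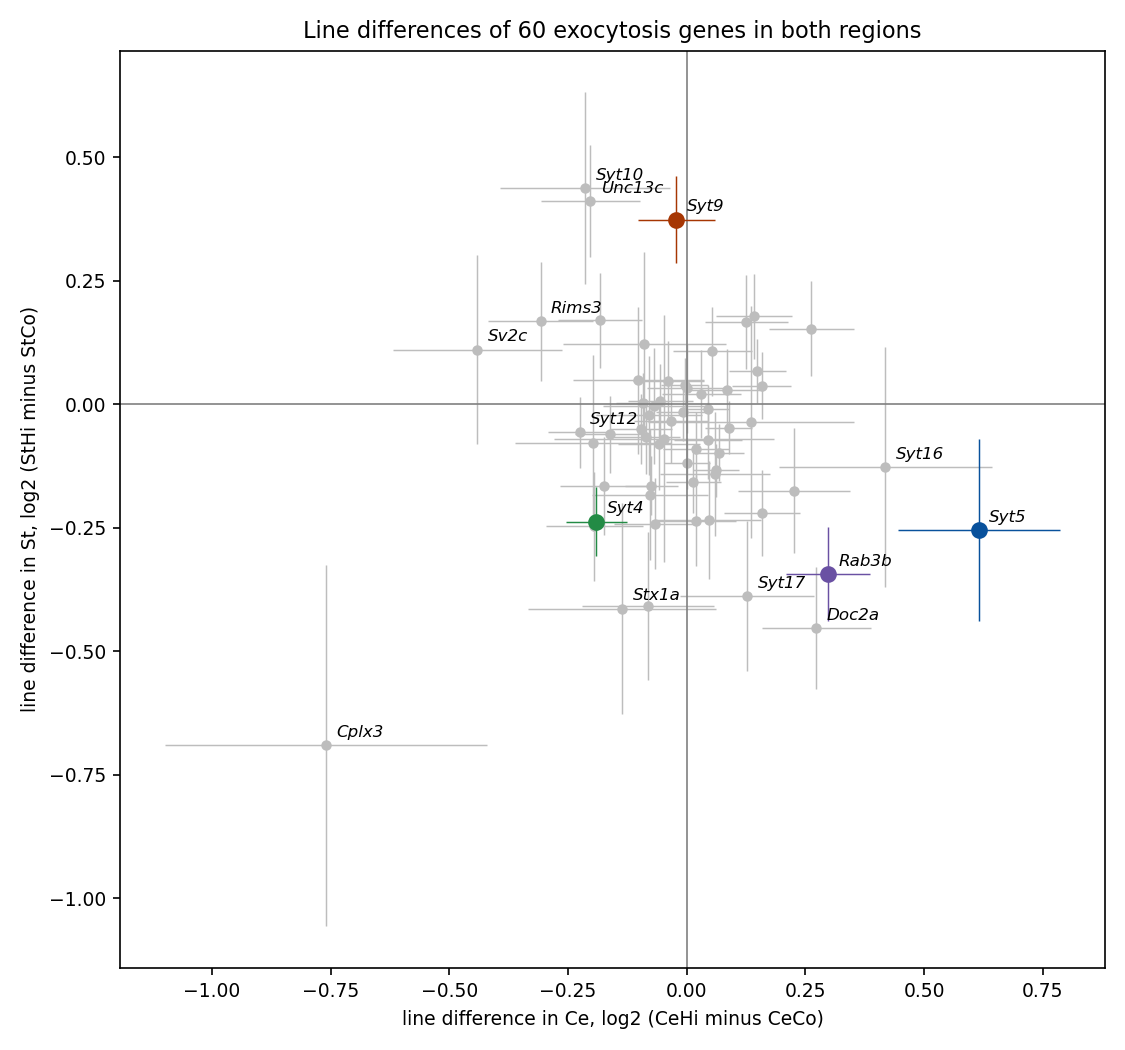
Line difference in Ce (x axis) against that in St (y axis), both log2 of Hi minus Co, for 60 genes, with bars for the SE. The 4 coloured genes were called, Syt5 in Ce, Syt9 in St, Syt4 over both regions and Rab3b for the difference between regions, and most others lie near 0.

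Several other members fell short of the threshold and are given as values. Doc2a had 160 to 196 normalized counts in CeCo and 193 to 264 in CeHi, and 1223 to 1439 in StCo against 780 to 1042 in StHi, with line differences of 0.27 ± 0.115 and -0.45 ± 0.124 and a difference between them of 0.73 ± 0.169 (limma adjusted P = 0.068). Without CeHi replicate 3 the St difference of Doc2a was past the threshold (-0.45, adjusted P = 0.028), as was that of Rab3b (-0.34, adjusted P = 0.027). Unc13c had 8404, 5842, 5977 and 6247 in StCo and 8553, 9332 and 8338 in StHi, where StCo replicate 0 lay inside the range of StHi (0.41 ± 0.113, adjusted P = 0.068). Without that sample the difference in St was past the threshold (0.53, adjusted P = 0.0028). Syt12 was at 3979 to 4698 in CeCo and 3550 to 3997 in CeHi (-0.23 ± 0.067, adjusted P = 0.056).

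Sums of markers of other cells and tissue are given by line, and the sums were not tested. Of the single markers limma called 1 between the lines in St, a granule cell marker that was higher in Hi. Over both regions 2 oligodendrocyte markers, 1 astrocyte and 1 medium spiny neuron marker were called higher in Hi and 1 microglia marker lower. The summed level of the 4 cortex markers was 7738, 8009, 5177 and 7074 normalized counts in StCo and 6147, 2739 and 4924 in StHi, so that 2 of the 3 StHi samples were below every StCo sample. The 10 measured medium spiny neuron markers summed to 212941 to 294159 in StCo and to 224693 to 294083 in StHi, with overlap. Some members had their lowest St value in StHi replicate 1, which had the lowest cortex marker sum. Among them were Doc2a, Syt17, Stx1a, Sv2b, Syt1, Syn1, Cplx3, Rab3b, Syt16, Snap25, Syt4 and Syt13. Other members, among them Sv2c, Syt10, Doc2b and Unc13c, had their highest St value in the same sample. The 5 oligodendrocyte markers summed to 187169 to 271494 in StCo and to 285052 to 325985 in StHi, without overlap, and to 173929 to 211236 in CeCo and 198406 to 255118 in CeHi. The 8 granule cell markers, which share Slc17a7 with the cortex list, summed to 32119 to 44411 in StCo and 18482 to 32836 in StHi, and to 256665 to 294487 in CeCo and 240346 to 265422 in CeHi. The median of their single line differences in St was -0.04, and the 1 marker called there was higher in Hi. The 4 choroid plexus markers ran from 207 to 742 in StCo and were at 716, 1794 and 16049 in StHi. In Ce they varied far more between samples of a group, from 1088 to 113783 in CeCo and from 784 to 110129 in CeHi. The part of these markers' cells and tissue in the line differences was not tested.

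**Figure D5:**
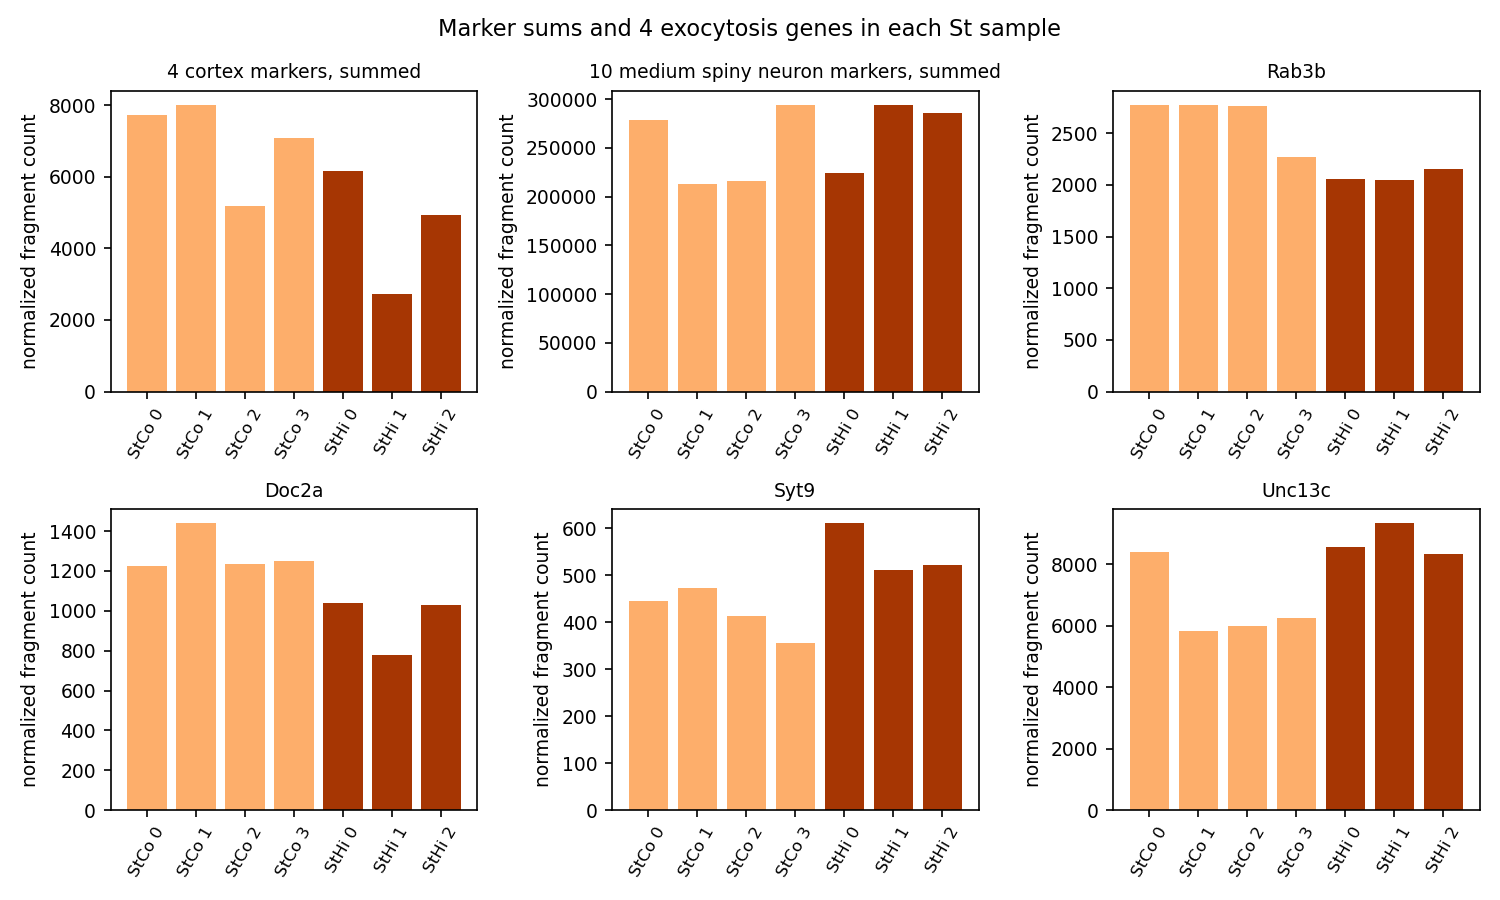
Bars from 0 give, for each of the 7 St samples (orange StCo, brown StHi), the summed normalized counts of 4 cortex markers and of 10 medium spiny neuron markers, and the normalized counts of Rab3b, Doc2a, Syt9 and Unc13c. The cortex sum is lowest in StHi replicate 1 (2739), Rab3b and Doc2a are lower in all StHi than in all StCo samples, and Syt9 is higher.

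The wider release pathway was described with 5 lists of other genes, of which 70 of 71 were in the table and all 70 were tested. Between the regions 28 were higher in St and 29 higher in Ce (81.4%, near the 80.2% of all genes). In Ce 5 were lower in Hi and none higher (7.14% against 5.94%). In St 0 were called by limma against 2.66% of all genes (13 at an unadjusted P-value under 0.05, and 5 by limma with sample quality weights, 1 by edgeR and 3 by DESeq2). Over both regions 3 were lower and 1 higher (5.71% against 8.48%), and 2 differed in their line difference between the regions (2.86% against 0.532%). The median line difference of the 70 genes was -0.01 in Ce and -0.07 in St.

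The SNARE regulators (18 tested) held 6 genes higher in St and 8 higher in Ce, 77.8% against the same background of 80.2%. Baiap3, a Munc13 relative of dense-core vesicle traffic, was at 81.2 to 534 normalized counts in Ce and 1011 to 3685 in St (3.71 ± 0.396). Cadps2, the priming factor of dense-core vesicles in granule cells, was 6.48-fold higher in Ce (14714 to 20292 against 1783 to 3289). Unc13d, the Munc13 of immune cells and platelets, had 413, 353, 302 and 413 normalized counts in CeCo and 219, 200, 189 and 187 in CeHi, without overlap, a line difference of -0.89 ± 0.127 (1.85-fold lower in Hi, limma adjusted P = 0.00027). It was at 45.6 to 65.1 in St, with -0.22 ± 0.137 there. Stxbp2 (Munc18-2), whose product works with the same immune priming factor, went from 1127 to 1509 in CeCo to 731 to 1074 in CeHi (-0.50 ± 0.129, adjusted P = 0.030). That call was lost without CeCo replicate 1 or 2 or CeHi replicate 1 or 3. Napa (alpha-SNAP), which recycles SNARE complexes, was lower in Hi over both regions (-0.16 ± 0.039, adjusted P = 0.017), a call lost without CeCo replicate 1 or StHi replicate 1.

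Active zone scaffolds (15 tested) were split as well, with 5 higher in St and 8 higher in Ce (86.7% against 80.2% of all genes). Rimbp2, which links RIM to calcium channels, was 15.9-fold higher in St (187 to 305 against 2960 to 3806 normalized counts) and Erc2 (CAST) 6.37-fold (1273 to 1671 against 8394 to 9974), whereas the RIM genes that these proteins bind were higher in Ce. Erc2 was lower in Hi in Ce (1467 to 1671 in CeCo and 1273 to 1377 in CeHi, without overlap, -0.22 ± 0.060, adjusted P = 0.037), and adjusted P-values over its alternatives ran from 0.014 to 0.13, the call being lost without any 1 of CeCo replicates 0 to 2 or any 1 CeHi sample.

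Vesicle membrane proteins (12 tested) were higher in St for 7 genes and higher in Ce for 3 (83.3% against 80.2% of all genes). Synpr (synaptoporin) had 4522, 4913, 4976 and 4387 normalized counts in CeCo and 3178, 2442, 2964 and 3641 in CeHi, without overlap (-0.64 ± 0.111, limma adjusted P = 0.0020), and 8856 to 11628 in StCo against 10028 to 12595 in StHi. Its difference in Ce was called under every alternative run, and the difference between the regions was -0.82 ± 0.163 (adjusted P = 0.036). The latter call was lost without any 1 CeCo sample, CeHi replicate 0 or 2, StCo replicate 0 or 1, or StHi replicate 1 or 2, and with the replicate block (adjusted P-values over the alternatives up to 0.11).

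Among the 6 vesicular transporters, 4 were higher in St (66.7% called against 80.2% of all genes). Slc18a3, the transporter of acetylcholine, was at 0 to 5.28 normalized counts in Ce and 279 to 522 in St. Slc17a8 (VGLUT3) was near the detection limit in Ce, with 9.80 to 16.9 in CeCo and 4.22 to 9.25 in CeHi, and at 415 to 495 in StCo and 558 to 895 in StHi. Its line differences were -1.15 ± 0.223 in Ce (limma adjusted P = 0.0042) and 0.67 ± 0.241 in St, and they differed by -1.82 ± 0.328 (adjusted P = 0.017), a call lost without StHi replicate 1 or 2. The call in Ce was lost with Ce fitted alone (adjusted P = 0.061). Slc32a1, the GABA and glycine transporter, was 2.05-fold higher in St and higher in Hi over both regions (0.19 ± 0.056, adjusted P = 0.040), with 5091 to 5253 in CeCo and 5164 to 6201 in CeHi. That call was lost without any 1 CeCo sample, CeHi replicate 2 or 3, StCo replicate 0, 1 or 3, or StHi replicate 1 or 2, and its adjusted P-values over the alternatives ran from 0.0022 to 0.11.

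The vesicle endocytosis list (19 tested) had 6 genes higher in St and 10 higher in Ce (84.2% against 80.2% of all genes). It had 0 line calls by limma in either region (1 gene in Ce and 0 in St at an unadjusted P-value under 0.05, and 0 by edgeR). In Ce 1 gene was called by DESeq2 and by limma with the replicate block or with Ce fitted alone. Sh3gl2 (endophilin A1) was 2.60-fold higher in Ce, and Ap2b1, the beta subunit of the clathrin adaptor AP-2, 1.64-fold higher in St.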

How the data were processed

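Male mice of 4 groups (2 regions, 2 lines) were measured by RNA-seq in 15 samples, grouped by their deposited titles. Per the study's methods paired-end reads (100 bases) were mapped by the authors with TopHat2 on GRCm38, and Cuffnorm scaled the gene counts by library size (version 2.2.1 in the submitters' processing notes). The deposited values are a gene-level signal: fragment counts divided by a factor per sample and, despite the table's name, not by gene length. This was checked on the values: 99.5% to 99.7% of values under 100 were whole multiples of a common step (tolerance 0.1 of a step), the value of 1 fragment. Strand was not given in the sources used here, nor whether reads of overlapping genes were split.

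Genes with a CPM of at least 1 in 3 samples were kept (15213), scaled by trimmed mean of M-values (edgeR 4.0.16, relative factors 0.993 to 1.01) and tested with limma 3.58.1 (trended, robust) in R 4.3.3 on log2(value + 1), a scale that understates changes of low genes. In simulated data of 15213 genes with the sample sizes of the line comparison in Ce, 66.5% of 200 genes changed by 0.5 on the log2 scale, 89.5% of those changed by 1 and 99% of those changed by 2 were recovered.

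Named genes were those called between lines or in the interaction, the 20 largest region differences, and the leading member per kilobase of each family, besides those not tested. A few of them are not reported here. Families, lists and tests were chosen with earlier results of these data known, and the members of each family by symbol alone. Alternatives changed the pseudocount (0.1, 5), filter, scaling, sample weights, replicate block, each region alone, each sample left out, and the count tests of edgeR and DESeq2 1.42.0 on recovered fragments. Gene lengths and positions came from GENCODE vM21. P-values measure the spread between these samples only.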

Additional observations from a re-analysis of the deposited data

Results flagged for a closer look

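In groups of 4 samples, 1 sample lay far from the other 3 (Dixon's test) in 12 of 96 groups of the 32 tested genes named, where chance gives about 1 in 20. The genes share the same samples, so the groups are not independent, and an excess over chance was not tested. In CeHi replicate 3 these were Doc2a (264 normalized counts against 193 to 200 in the other 3), Rab3a (21334 against 17175 to 17827) and Vamp2 (37120 against 31716 to 32278). CeHi replicate 0 was high for Stx3 (2263 against 1565 to 1625). In CeCo, replicate 1 was high for Doc2b (5085 against 3973 to 4122) and Stx3 (2025 against 1730 to 1780), and replicate 0 for Sv2c (1354 against 1094 to 1118). In StCo, replicate 3 was low for Rab3b (2270 against 2762 to 2773) and Rims3 (414 against 570 to 595) and high for Sv2c (2812 against 2536 to 2580). StCo replicate 1 was high for Doc2a (1439 against 1223 to 1251), and replicate 0 for Unc13c (8404 against 5842 to 6247).

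The line difference was not the same in the regions for Rab3b (interaction 0.64, limma adjusted P = 0.036), Slc17a8 (-1.82, adjusted P = 0.017) and Synpr (-0.82, adjusted P = 0.036).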

How the results depend on the processing

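Region counts of called genes stayed between 49 and 52 under every alternative, and the 20 largest region differences kept direction and call in all of them. The line calls did not. In Ce, where 1 of 61 genes was called, 0 were with a pseudocount of 0.1 in limma (12 at an unadjusted P-value under 0.05), 2 each with quantile normalization, sample quality weights and the replicate block, and 3 with DESeq2. Syt5 was not among the calls with sample quality weights (2 lower in Hi), by edgeR (1 lower) or with Ce fitted alone (1 higher). In St the 1 call became 4, 6, 3 and 5 with quantile normalization, sample quality weights, edgeR and DESeq2, and 0 with each region fitted alone in limma (17 unadjusted). Over both regions it became 2, 8, 3 and 3 with quantile normalization, sample quality weights, the replicate block and DESeq2, and the 1 interaction call became 2, 2, 0 (14 unadjusted) and 4. Without both CeHi replicate 3 and StHi replicate 1, an alternative chosen after seeing the data, limma called 0 in Ce (9 unadjusted), 0 over both regions (8) and 0 for the interaction (9). With each sample left out in turn the counts ranged from 0 to 2 in Ce, 0 to 3 in St, 1 to 4 over both regions and 0 to 1 for the interaction. The causes were not tested. Single results were also tallied: line and interaction calls, some that fell short, the 20 largest region differences and that of Unc13c. In this tally 1043 repeated values kept direction and call, 95 lost and 20 gained a call, and none changed direction. All calls lost or gained in it were of line differences or interactions. The values that kept their call include every region difference in the tally, and also results that were not called in the main fit. The smaller region differences whose call changed, such as those of Sv2b and Sv2a, are given above and are not in the tally. The replicate numbers were not used as pairs, and whether same-numbered samples came from the same mice is not given in the sources used here. After each group's mean was subtracted gene by gene, the remainders of same-numbered Ce and St samples were correlated. These correlations were 0.171 to 0.278 in Co, all positive, and -0.0751 to 0.0513 in Hi. Calls at this sample size miss many line differences of 0.5 or less on the log2 scale, and low genes such as Slc17a8 in Ce are limited by depth.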
